A study of Mus musculus with 3 samples.

Results

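Sections of the mouse embryonic axial skeleton at embryonic days E13.5 and E11.5 also cut through heart tissue, and 146 of 2921 spots are described here as heart muscle spots. Spots with at least 1000 UMIs (molecular barcodes that count captured RNA molecules) were ranked within their section by the summed UMIs of Myl7, Myh6 and Tnni3 over all UMIs of the spot, and the top 5% were taken. This gave 68 of 1360 spots at E13.5 and 78 of 1561 at E11.5, out of 3942 spots in the whole series. The spots were thus chosen by the measured UMIs of these 3 genes. Their levels are given only as a description, and differences between heart muscle spots and other spots carry no test.

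The study profiled frozen sections of 10 µm with Visium, a slide that captures polyadenylated RNA on an array of barcoded spots 55 µm across and 100 µm from centre to centre. Each stage, E11.5, E12.5 and E13.5, is represented by 1 section, and spots of 1 section are not replicates, so that no test between stages was possible. The labels call the tissue bone and the samples axial skeleton, and they give no strain, genotype, sex or treatment. Every ratio below compares summed UMIs scaled to a total of 1000000 (CPM), with an exact 95% interval that covers counting error only. A gene was called higher or lower at a ratio of at least 2 or at most 0.5 with at least 50 UMIs over both sums, and this is the minimum meant below. A spot can hold several cells, so that fewer cells of a type and less RNA per cell cannot be told apart.

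Heart muscle cells contract through sarcomeres, in which myosin thick filaments pull on actin thin filaments under the control of troponin and of calcium released from the sarcoplasmic reticulum. In the mouse embryo Myl7 marks muscle of the whole early heart, Myl2, Myl3 and Irx4 are known from the ventricles, Sln and Nr2f1 from the atria, and Shox2 and Hcn4 from the inflow region where the pacemaker forms. Nppa, which encodes a natriuretic peptide, is known from the atria and from the trabeculae of the ventricles.

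**Figure D1:**
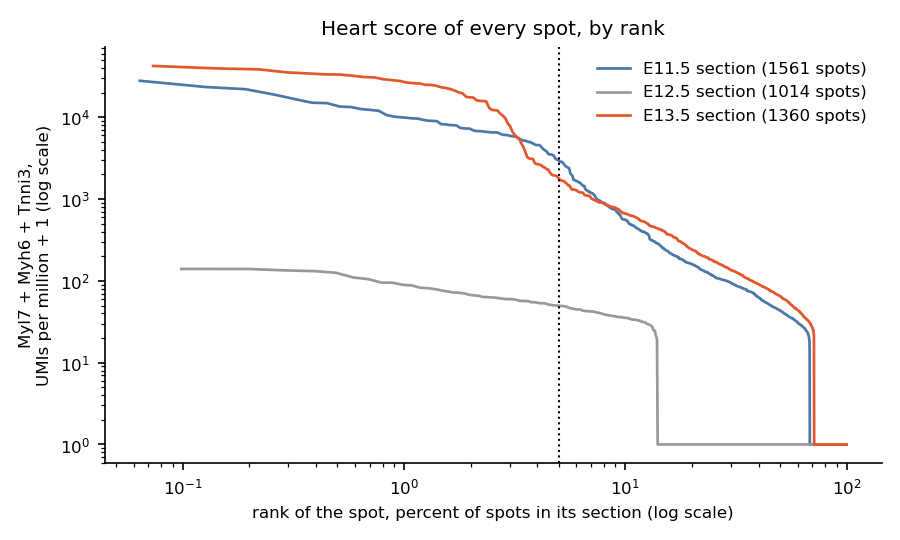
Summed UMIs of Myl7, Myh6 and Tnni3 per 1000000 UMIs of a spot plus 1 (vertical, log scale) against the rank of the spot as a percentage of its section (horizontal, log scale), 1 line per section, with the boundary at 5% dotted. The highest spot of E11.5 reached 27979 and that of E12.5 stopped at 139. The highest spot of E13.5 reached 42484, and that line drops steeply before the boundary.

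The score fell off differently in the sections. At E13.5 the highest spot held 42484 UMIs of the 3 genes per 1000000, the median heart muscle spot 12269, the last spot inside the boundary 1795 and the first outside 1709.7. At E11.5 the highest spot held 27979, the median heart muscle spot 6539, the last inside 3014 and the first outside 2851. At E13.5, 38 spots reached 10000 per 1000000 and 16 heart muscle spots lay under 3000, whereas at E11.5 15 spots reached 10000 and 0 heart muscle spots lay under 3000. The E12.5 section, in which the highest spot held 139 per 1000000, served as background. The E13.5 heart muscle spots held 1333437 UMIs and a median of 19142.5 per spot, and the E11.5 ones 3037729 and a median of 37413. The other spots held 27416877 UMIs at E13.5 and 41320881 at E11.5. Of the barcodes, 704 were shared between the E13.5 and E11.5 sections, and 0 of these were heart muscle spots in both.

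The label was checked against 14 heart muscle markers that did not enter the score. Their summed level was 11933 CPM in heart muscle spots and 3395 CPM in other spots at E13.5, and 27556 CPM in heart muscle spots and 398 CPM in other spots at E11.5. Over single heart muscle spots the sum ran from 1235 to 33717 CPM at E13.5 (median 8789.5), and from 3216 to 62949 CPM at E11.5 (median 22078). The same 14 markers summed to 10847 CPM in the E13.5 spots richest in skeletal muscle genes, with single spots from 6795 to 18399.7 CPM (median 10710.4), so that at E13.5 this sum did not separate heart from skeletal muscle spots. Of this list, Mybpc3, Tnnt2, Csrp3, Ryr2, Nppa, Nkx2-5 and Tbx20 were at least 2-fold higher in heart than in skeletal muscle spots. Myl2, Myl3, Myh7 and Actn2 were lower, and Actc1, Myl4 and Smpx stayed within 2-fold. Mybpc3 stood at 383 and 3.48 CPM in heart and skeletal muscle spots. Tnnt2 had a UMI in 66 of 68 heart muscle spots at E13.5 and Mybpc3 in 61, against 77 and 78 of 78 at E11.5. At E13.5 the spots were uneven: Tnnt2, cardiac troponin T of the thin filament, stood at 2981 CPM in the 34 spots with the higher score and at 519 CPM in the 34 with the lower score, and the heart factor Nkx2-5 at 182 and 20 CPM. In the lower-scoring E13.5 spots the elastin gene Eln reached 1296 CPM and the lung epithelial gene Sftpc 194 CPM, against 275 and 65.3 CPM in the higher-scoring ones. At E11.5 Tnnt2 was even, at 2411 CPM in the 39 higher-scoring and 2158 CPM in the 39 lower-scoring spots.

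Against the other spots of the same section, 757 of 13590 genes (5.57%) were higher and 1429 of 13590 genes (10.5%) lower in heart muscle spots at E13.5. At E11.5 884 of 13969 genes (6.33%) were higher and 2477 of 13969 genes (17.7%) lower. Of 13015 genes that passed the minimum in both sections, 337 (2.59%) were higher in both and 574 (4.41%) lower in both. At E11.5 higher genes made up 26.3% of the calls, against 42.6% with edgeR's TMM scaling and 41.7% with DESeq2's size factors, which moved the median log2 ratio of all genes by 0.29 and 0.27. By the smaller of the 2 ratios, the genes higher in both were led by Nppa, Mybpc3 and Nkx2-5.

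Nppa stood at 120.0 CPM in heart muscle spots and 1.06 CPM in other spots at E13.5 (113-fold higher, 76.0 to 175), and at 1261.5 and 9.29 CPM at E11.5 (136-fold higher, 122 to 151). In single heart muscle spots Nppa ran from 0 to 4562 CPM at E13.5 (median 0), and from 0 to 13127 CPM at E11.5 (median 259). A minority of E13.5 spots thus held most of its UMIs. Mybpc3, the cardiac myosin-binding protein C, stood at 383 and 4.34 CPM at E13.5 (88.3-fold higher, 72.2 to 109) and at 719 and 9.17 CPM at E11.5 (78.4-fold higher, 70.3 to 87.7), in heart muscle spots and other spots in turn. Its single heart muscle spots ran from 0 to 1941 CPM at E13.5 and from 86.9 to 1358 CPM at E11.5, and the highest other spot held 525 and 652 CPM, so that the groups overlapped in both sections. In the E12.5 section Mybpc3 held 0 UMIs, which allows up to 0.118 CPM. Nkx2-5, the homeodomain factor of heart progenitors and heart muscle, was 177-fold (107 to 311) higher in heart muscle spots at E13.5 and 48.6-fold (41.4 to 57.2) at E11.5. Tbx20, a T-box factor of the heart, was 65.9-fold (49.5 to 88.9) higher at E13.5 and 16.7-fold (14.4 to 19.4) at E11.5.

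Of 37 cardiac transcription factors, 16 were higher and 4 lower among the 34 that passed the minimum at E13.5, with a median log2 ratio of 0.89, beside -0.12 over all genes. At E11.5 20 were higher and 2 lower among 36, with a median of 1.22 beside -0.30 over all genes. Gata4, a zinc finger factor of heart muscle, was 8.68-fold (6.55 to 11.4) higher at E13.5 and 11.3-fold (9.65 to 13.3) at E11.5.

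Part of the calcium handling and conduction lists was higher in heart muscle spots. Ryr2, the calcium release channel of the sarcoplasmic reticulum, was 31.9-fold (23.3 to 43.8) higher in heart muscle spots at E13.5 and 40.2-fold (30 to 54.3) at E11.5. Slc8a1, the sodium-calcium exchanger, was 12.7-fold (11.1 to 14.5) higher at E13.5 and 25.3-fold (22.8 to 28.0) at E11.5. Popdc2, a cyclic AMP-binding membrane protein of heart muscle, was 11.3-fold (9.29 to 13.8) and 44.4-fold (37.8 to 52.3) higher at E13.5 and E11.5, and Atp1b1, a sodium pump subunit, 9.50-fold (8.70 to 10.4) and 18.1-fold (16.9 to 19.5). Of 18 calcium handling genes, 9 were higher and 0 lower at E13.5, among 17 that passed, with a median log2 ratio of 1.33. At E11.5 14 of 18 were higher and 0 lower, with a median of 3.15. Of 20 conduction and ion channel genes, 10 of 18 that passed were higher at E13.5 and 8 of 17 at E11.5, and the calcium channel gene Cacna1g and the adhesion gene Cntn2 were lower in both.

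The lists of the sarcomere and its anchors had higher median ratios at E11.5 than at E13.5. Of 11 thick filament genes besides the scoring ones, 6 were higher and 4 lower at E13.5 (median log2 ratio 1.04). At E11.5 10 were higher and 0 lower (median 5.80), of 10 that passed. Of 14 thin filament genes, 7 were higher and 3 lower at E13.5 (median 0.98), and 11 higher and 0 lower at E11.5 (median 4.57). Of 21 genes of the Z-disc and costamere, which anchor the filaments, 12 were higher at E13.5 (median 1.19) and 19 at E11.5 (median 5.13), and 0 were lower in either. Beside these counts, skeletal muscle markers summed to 385 CPM in heart muscle spots and 5044 CPM in other spots at E13.5, and to 56.3 and 90.5 CPM at E11.5. Skeletal muscle uses many of the same sarcomere genes. With the 68 spots richest in skeletal muscle genes left out of the 1292 other E13.5 spots, an alternative added after the values had been seen, the E13.5 medians were 1.39 for thick filament, 1.29 for thin filament and 1.55 for Z-disc and costamere genes. Before this, the median other spot held 2129 CPM of skeletal muscle markers, so that skeletal muscle RNA remained among the spots kept.

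Most of the single genes given here had the larger ratio at E11.5, while Dsp, and Mybpc3 above, had it at E13.5. Tnnt2 was at 1876 and 283 CPM in heart muscle and other spots at E13.5 (6.62-fold higher, 6.32 to 6.92), and at 2281 and 31.9 CPM at E11.5 (71.6-fold higher, 67.5 to 76.0). Actc1, cardiac actin, was at 3104 and 1433 CPM at E13.5 (2.17-fold higher, 2.10 to 2.24) and 5216 and 94.8 CPM at E11.5 (55.0-fold higher, 53.2 to 57.0). Csrp3, the muscle LIM protein of the Z-disc, was at 1442 and 115 CPM at E13.5 (interval of the ratio 11.8 to 13.2) and at 1211 and 11.7 CPM at E11.5 (103-fold higher, 93.9 to 114). Ankrd1, a stretch-responsive ankyrin repeat protein, was 25.5-fold (22.1 to 29.5) higher at E13.5 and 131-fold (114 to 152) at E11.5, and Hspb7, a small heat shock protein of heart muscle, 31.3-fold (27.1 to 36.1) and 126-fold (104 to 153). Mlip, a lamin-interacting muscle protein, was 34.8-fold (25.4 to 48.0) and 90.0-fold (59.4 to 142) higher, Fhl2, a LIM protein of heart muscle, 7.61-fold (6.64 to 8.71) and 13.9-fold (12.6 to 15.4), and Dsp, desmoplakin of the cell junctions, 21.1-fold (17.2 to 25.8) and 13.2-fold (11.7 to 14.8), at E13.5 and E11.5 in each case.

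Mitochondrial and fuel genes differed by smaller factors, with some muscle isoforms far apart. Cox7a1, the muscle form of a cytochrome c oxidase subunit, was 29.1-fold (24.6 to 34.5) higher in heart muscle spots at E13.5 and 30.6-fold (27.1 to 34.7) at E11.5. Chchd10, a mitochondrial protein abundant in heart, was 17.3-fold (15.5 to 19.2) and 18.0-fold (16.7 to 19.4) higher, and Fabp3, the heart fatty acid-binding protein, 9.36-fold (8.74 to 10.0) and 15.3-fold (14.2 to 16.6). Cpt1b, which admits fatty acids to muscle mitochondria, was 12.9-fold (9.60 to 17.2) higher at E13.5 and 11.2-fold (9.22 to 13.6) at E11.5. Of 20 genes of energy transfer and muscle mitochondrial isoforms, 12 were higher and Mb lower at E13.5, and 14 were higher and 0 lower at E11.5. Of 39 oxidative phosphorylation genes, 4 were higher at E13.5 (median log2 ratio 0.79) and 9 at E11.5 (median 0.81), and 0 were lower in either. Of 19 glycolysis genes, 5 were higher at E13.5 (median 0.65) and 14 at E11.5 (median 1.69).

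Most cartilage genes were lower in heart muscle spots, as were other genes that the naming rule gave. Pax1, a sclerotome factor, was at 6.0 and 136.5 CPM in heart muscle and other spots at E13.5 (22.8-fold lower, 11.53 to 52.7) and at 4.61 and 33.0 CPM at E11.5 (7.17-fold lower, 4.26 to 13.2). Taking the top 10% of spots instead of 5% turned the E11.5 difference of Pax1 round, to a log2 ratio of 0.21. Col9a1, a cartilage collagen, was 6.86-fold (5.38 to 8.90) lower at E13.5 and 3.67-fold (2.94 to 4.64) lower at E11.5. Crabp1, a retinoic acid-binding protein, was 6.83-fold (5.47 to 8.65) and 6.88-fold (6.32 to 7.51) lower, and Penk, the enkephalin precursor, 8.31-fold (5.94 to 12) and 12.6-fold (6.63 to 27.6). Of 14 cartilage genes, 12 were lower and 0 higher at E13.5. At E11.5 8 of 12 that passed were lower and Hapln1, a matrix gene that endocardial cushions also express, was 4.46-fold (3.82 to 5.19) higher.

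**Figure D2:**
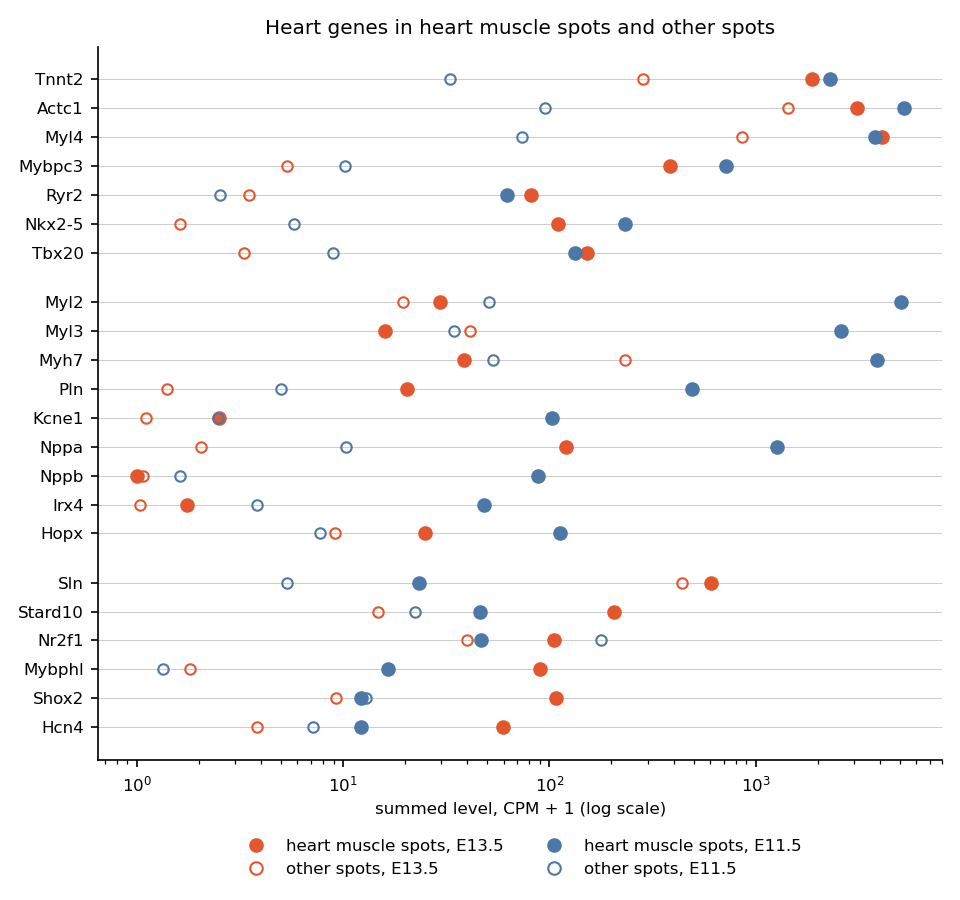
Level of selected heart genes (horizontal, CPM plus 1, log scale) in the summed UMIs of heart muscle spots (filled) and of other spots (open) at E13.5 (red) and E11.5 (blue), 1 section each. Myl2, Myl3 and Myh7 lie at 28.5, 15 and 37.5 CPM in E13.5 heart muscle spots and at 5059, 2589 and 3881 CPM in E11.5 ones.

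The heart muscle spots of the stages were then set against each other. The ventricular list was lower at E13.5 in 9 of 10 genes that passed, while 4 of 11 atrial genes were higher, 1 was lower and 6 stayed within 2-fold. Of the genes tested, 658 of 8755 genes (7.52%) were higher and 207 of 8755 genes (2.36%) lower at E13.5 than at E11.5, with a median log2 ratio of 0.17. List counts between the stages are to be read beside these shares. Higher genes made up 76.1% of these calls, but 47.3% with TMM scaling and 50.8% with DESeq2's size factors, which moved the median of all genes by -0.30 and -0.27. Among other spots, 2235 of 15121 genes (14.8%) were higher and 1263 of 15121 genes (8.35%) lower at E13.5. Stage, section, sex and the part of the heart in the section cannot be told apart. Xist, the RNA of the inactive X chromosome, held 0 UMIs in the E13.5 section and 4304 in the E11.5 section, and the Y-linked Ddx3y held 1189 and 0.

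Several genes that were higher than in other spots in both sections stayed within 2-fold between the stages, and Nkx2-5 did not. Tnnt2 was at 1876 and 2281 CPM at E13.5 and E11.5 (ratio 0.822, 0.785 to 0.861). Myl4, an embryonic and atrial myosin light chain, was at 4095 and 3777.5 CPM (ratio 1.08, 1.05 to 1.12), and Ttn, the titin spring of the sarcomere, at 588 and 549 CPM (ratio 1.07, 0.982 to 1.17). Hspb7 was at 364 and 355.5 CPM (ratio 1.02, 0.917 to 1.14) and Cox7a1 at 250.5 and 277 CPM (ratio 0.904, 0.794 to 1.03). Tbx20 was at 151.5 and 132 CPM (ratio 1.14, 0.962 to 1.36), and the calcium pump gene Atp2a2 at 965 and 882 CPM (ratio 1.10, 1.02 to 1.17). Nkx2-5, at 109.5 and 232 CPM, was 2.12-fold (1.77 to 2.55) lower at E13.5. These ratios pool higher-scoring and lower-scoring spots. In the higher-scoring spots Nkx2-5 was at 182.4 and 270.3 CPM at E13.5 and E11.5, and in the lower-scoring ones at 20.04 and 195.3 CPM. Tnnt2 was at 2981.1 and 2411 CPM in the higher-scoring and 519.4 and 2158.1 CPM in the lower-scoring spots. Myl4 stood at 6350.3 and 4221.8 CPM, and at 1327.6 and 3357.5 CPM, in the same order.

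Ventricular light chain genes were low at E13.5, though above the E12.5 section, which held 0.981 CPM of Myl2 and 0.549 CPM of Myl3. Myl2, the ventricular regulatory light chain, was at 28.5 CPM at E13.5 and 5059 CPM at E11.5 (177.5-fold lower, 129 to 251). In single spots Myl2 ran from 0 to 284.5 CPM at E13.5 (median 0), and from 0 to 12378 CPM at E11.5 (median 3187). Most E11.5 spots therefore lay above the whole E13.5 range, and the lowest ones lay within it. Against the other spots of its section, Myl2 stood at 28.5 and 18.6 CPM in heart muscle and other spots at E13.5 (ratio 1.53, 1.07 to 2.13) and at 5059 and 49.8 CPM at E11.5 (101.5-fold higher, 96.9 to 106). With the top 3% of spots, or without the spots richest in skeletal muscle genes among the others, the E13.5 log2 ratio of Myl2, with no pseudocount, was 1.17 or 1.05. Myl3, the ventricular essential light chain, was at 15 and 2589 CPM at E13.5 and E11.5 (173-fold lower, 112 to 283). Its single spots ran from 0 to 152 CPM at E13.5 and from 0 to 5161 CPM at E11.5, with medians of 0 and 2095 CPM. Myh7, the slow myosin heavy chain, was at 37.5 and 3881 CPM (103.5-fold lower, 78.5 to 139.5), with single spots from 0 to 655 CPM at E13.5 and from 42.9 to 7309 CPM at E11.5. Myh7 lies beside its near-identical paralog Myh6, and how reads shared by the pair were assigned is not given in the sources used here.

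The promoter of Myl3 is shown with those of Mybphl, an atrial relative of Mybpc3 that was higher at E13.5, and of Nppa, as 1 gene from each pattern described here. Each is the 250 bases before the start of the RefSeq gene on GRCm38.p6, at chr9:110763428-110763677 for Myl3, chr3:108364661-108364910 for Mybphl and chr4:148000472-148000721 for Nppa, all on the plus strand. Capitals mark matches on either strand to the CArG box of serum response factor, the MEF2 site, a GATA site (AGATAA), a variant GATA site (TGATAA), a T-box half-site (GGTGTGA) and a TEAD site (CATTCC). No match to one motif overlapped a match to another in these windows.
Myl3: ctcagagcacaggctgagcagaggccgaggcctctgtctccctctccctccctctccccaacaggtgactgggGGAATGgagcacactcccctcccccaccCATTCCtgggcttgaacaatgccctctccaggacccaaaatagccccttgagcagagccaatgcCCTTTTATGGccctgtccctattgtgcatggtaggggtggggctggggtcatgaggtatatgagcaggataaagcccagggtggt
Mybphl: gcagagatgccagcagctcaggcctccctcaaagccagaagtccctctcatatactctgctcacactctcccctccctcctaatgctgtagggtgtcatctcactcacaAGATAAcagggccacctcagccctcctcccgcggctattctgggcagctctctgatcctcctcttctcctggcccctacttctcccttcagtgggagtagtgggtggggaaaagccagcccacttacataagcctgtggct
Nppa: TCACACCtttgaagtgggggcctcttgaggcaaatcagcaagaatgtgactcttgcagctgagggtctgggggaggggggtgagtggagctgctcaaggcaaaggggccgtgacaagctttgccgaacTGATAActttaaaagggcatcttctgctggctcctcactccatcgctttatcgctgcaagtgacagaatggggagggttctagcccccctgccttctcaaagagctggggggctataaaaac
The Myl3 window holds 1 CArG box, 85 bases before the start, and 2 matches to the TEAD site. The Mybphl window holds 1 match to the GATA site, and the Nppa window 1 to the variant GATA site and 1 to the T-box half-site. Over 27025 promoter windows of this length, 1.40% hold a CArG box, 3.01% a MEF2 site, 10.3% the GATA site, 8.16% its variant, 3.31% the T-box half-site and 12.6% the TEAD site. Of the 15 genes named as lower at E13.5, 14 have a window, of which 3 hold a CArG box, 0 a MEF2 site and 4 the GATA site. The variant GATA site is in 2 of these, the T-box half-site in 0 and the TEAD site in 4. Of the 15 named as higher at E13.5, 9 have a window, of which 0 hold a CArG box, 1 a MEF2 site and 1 the GATA site. The other 3 motifs are in 0 of these. Of those named as higher than other spots in both sections, 22 have a window. Among these, 1 holds a CArG box, 2 a MEF2 site and 6 the GATA site. The variant is in 5, the T-box half-site in 2 and the TEAD site in 4. The share with the GATA site was 27.3% there and 28.6% in the genes lower at E13.5. The window of Shox2, whose sequence is not shown, holds 0 matches to the 6 motifs. A match is a stretch of letters and shows no binding.

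Other ventricular genes and part of the trabecular genes were lower too. Pln, the inhibitor of the calcium pump, was at 19.5 and 490.5 CPM at E13.5 and E11.5 (25.2-fold lower, 17.1 to 38.6), and it was also 9.95-fold (5.42 to 20.3) lower among other spots. Nppb, the B-type natriuretic peptide precursor, held 0 UMIs at E13.5 and 266 at E11.5, and was at least 38.9-fold lower with the E13.5 sum set to a floor of 3 UMIs. Irx4, a ventricular homeobox factor, held 1 UMI at E13.5 and 144 at E11.5 (63.2-fold lower, 11.2 to 2514), and Kcne1, a potassium channel subunit, 2 and 311 UMIs (68.3-fold lower, 18.7 to 566). Nppa was at 120.0 and 1261.5 CPM (10.5-fold lower, 8.97 to 12.4), and it was 8.79-fold (6.02 to 13.3) lower among other spots as well. Hopx, a homeodomain-only protein, was 4.66-fold (3.24 to 6.93) lower, Hey2, a Notch target of the ventricle, 3.75-fold (2.19 to 6.89), and Mb, myoglobin, 34.4-fold (11.6 to 168). Of 10 ventricular genes that passed the minimum, 9 were lower and 0 higher, with a median log2 ratio of -5.01, or -5.32 without the pseudocount. The same list had a median of -1.3 among other spots, and Tbx20 was its member within 2-fold in heart muscle spots. Of 9 natriuretic peptide and trabecular genes that passed, Nppa, Nppb, Irx3, Cited1 and Npr3 were lower and Gja5 and Slit3 higher (median log2 ratio -1.05). Hmga2, a chromatin protein of early embryos, was 13.8-fold (8.15 to 25.5) lower in heart muscle spots and 4.77-fold (4.52 to 5.04) lower in other spots.

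Part of the atrial list was higher at E13.5, as were Shox2 and Hcn4, known from the inflow region. Sln, sarcolipin, an atrial regulator of the calcium pump, was at 608 and 22.4 CPM at E13.5 and E11.5 (27.2-fold higher, 21.2 to 35.3). Sln also stood at 441 and 4.33 CPM in other spots of the stages, and at 1662 CPM in skeletal muscle spots of the E13.5 section. Shox2, a factor of the pacemaker region, was at 106.5 and 11.2 CPM (9.51-fold higher, 6.51 to 14.3), whereas other spots held 8.28 and 11.9 CPM (ratio 0.694, 0.590 to 0.814). Hcn4, the pacemaker channel, was at 58.5 and 11.2 CPM (5.23-fold higher, 3.45 to 8.07), and in other spots it was 2.16-fold (1.67 to 2.82) lower at E13.5. Mybphl was at 89.2 and 15.5 CPM (5.77-fold higher, 4.08 to 8.27) and Stard10, a lipid transfer protein, at 205.5 and 45.1 CPM (4.56-fold higher, 3.70 to 5.64). Nr2f1, an atrial nuclear receptor, was at 104 and 45.4 CPM (2.30-fold higher, 1.80 to 2.92). Of 13 atrial genes, Sln, Nr2f1, Stard10 and Tbx5 were higher and Myh7b, a slow-muscle myosin heavy chain, was lower among 11 that passed, with a median log2 ratio of 0.71, and 1.57 among other spots.

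In single spots these genes overlapped between the stages. Sln ran from 0 to 3059 CPM at E13.5 (median 292), and from 0 to 270.2 CPM at E11.5 (median 0). Shox2 ran from 0 to 378.5 CPM at E13.5 (median 39.6), and from 0 to 176 CPM at E11.5 (median 0). Nr2f1 ran from 0 to 446 CPM at E13.5 and from 0 to 307 CPM at E11.5, with medians of 39.5 and 32.7. All 3 had E13.5 spots above every E11.5 spot and spots at 0 in both sections. Within the E13.5 section Sln was at 998 CPM in the 34 higher-scoring and 130.3 CPM in the 34 lower-scoring heart muscle spots, and Shox2 at 171.5 and 26.7 CPM.

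Slc17a7, Vsnl1 and Mlf1, which the naming rule gave, and several channel genes were also higher at E13.5. Slc17a7, a vesicular glutamate transporter, was at 80.2 and 6.26 CPM at E13.5 and E11.5 (12.8-fold higher, 7.83 to 22.1), and 88.0-fold (56.5 to 142) above the other E13.5 spots. Vsnl1, a calcium sensor also known from neurons, was 5.57-fold (4.28 to 7.30) and Mlf1 6.24-fold (4.75 to 8.28) higher at E13.5. Of 10 neuron markers, Stmn2, Nefl and Gap43 were higher and 0 lower among 7 that passed in heart muscle spots, whereas 10 of 10 were lower in other spots. Of 20 conduction and ion channel genes, 6 were higher, among them Hcn4, Gja5, Kcnj3, Cacna1g and Cacna1d, and 0 lower, among 14 that passed the minimum. Over all genes tested in heart muscle spots, 7.52% were higher and 2.36% lower. Gja5, a connexin that is also on the trabecular list, was at 54.8 and 15.1 CPM (3.62-fold higher, 2.47 to 5.35). It was also at least 2-fold higher at E13.5 among other spots.

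Among 37 cardiac transcription factors, 32 passed the minimum, of which 7 were higher, among them Tbx5, Tbx2, Tbx3, Isl1, Shox2 and Ppargc1a, and Nkx2-5, Hopx, Irx3, Irx4 and Hey2 lower at E13.5. Tbx3, a repressor known from the conduction system, was at 28.5 and 11.52 CPM at E13.5 and E11.5 (2.47-fold higher, 1.52 to 4.03). Isl1, a factor of the second heart field and the sinus node, held 28 and 28 UMIs, which is 21.0 and 9.22 CPM (2.28-fold higher, 1.3 to 3.99). Tbx5, a factor of atria and left ventricle, was at 27.0 and 11.52 CPM (2.34-fold higher, 1.43 to 3.84), and Gata4 at 57.0 and 94.8 CPM (ratio 0.601, 0.461 to 0.776). Among other spots Tbx5 was also at least 2-fold higher at E13.5, whereas Isl1 was at least 2-fold lower. With TMM scaling or DESeq2's size factors Nr2f1, Tbx5 and Isl1 fell short of 2-fold, while Mybpc3, Actc1, Popdc2, Sh3bgr and Acta1 passed it as lower, as Gata4 did with TMM. With the top 3% of spots Nkx2-5, Ankrd1, Smpx, Tbx5, Tbx3 and Isl1 fell short, and with each spot weighing the same Nr2f1 and Ankrd1 did.

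**Figure D3:**
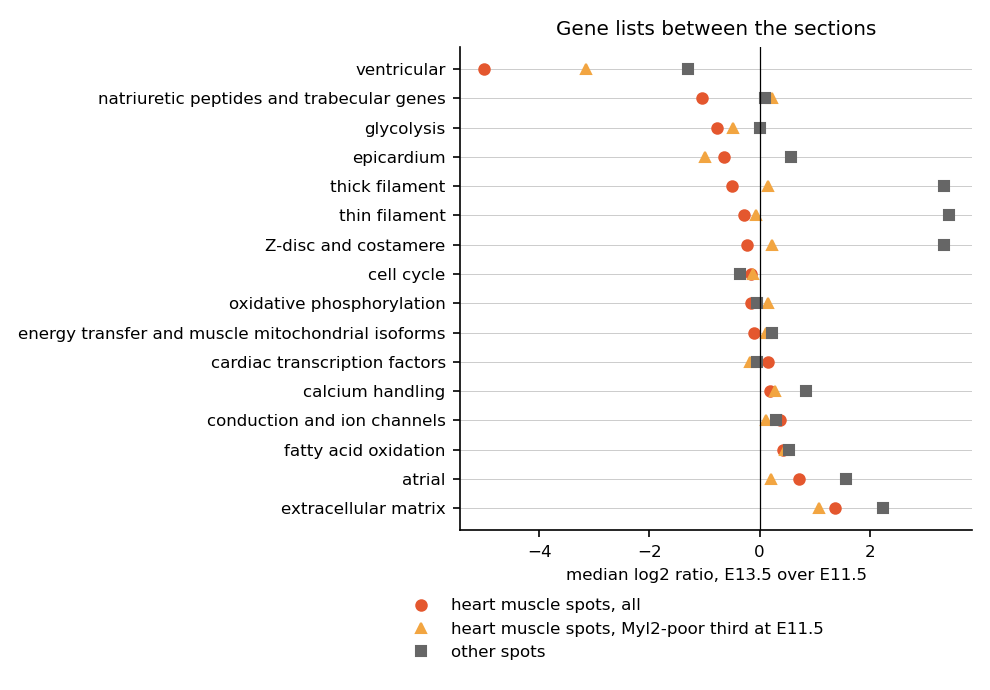
Median log2 ratio of E13.5 over E11.5 (horizontal) of each gene list, over genes that passed the minimum, in all heart muscle spots (circles), with only the E11.5 heart muscle spots poorest in Myl2 (triangles) and in other spots (squares). The ventricular list lies at -5.01 for all heart muscle spots and at -3.15 against the Myl2-poor spots, over 10 and 6 genes, while oxidative phosphorylation lies at -0.16 and cell cycle at -0.16.

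Part of the glycolysis list was lower at E13.5, and the oxidative phosphorylation list stayed within 2-fold. Of 18 glycolysis genes that passed the minimum, Pfkl, Tpi1, Pgk1, Eno1, Pkm, Slc2a1 and Slc16a3 were lower and 0 higher, with a median log2 ratio of -0.77 in heart muscle spots and 0.00 in other spots. Slc2a1, the glucose transporter, was at 102 and 357 CPM at E13.5 and E11.5 (3.5-fold lower, 2.93 to 4.22). In single spots it ran from 0 to 496 CPM at E13.5 and from 0 to 872 CPM at E11.5, with medians of 90.1 and 307, so that the stages overlapped. Pgk1, a glycolytic kinase, was at 387 and 1335 CPM (3.45-fold lower, 3.15 to 3.79). Ldha, which turns pyruvate to lactate and is not on that list, was at 765 and 2276 CPM (2.98-fold lower, 2.78 to 3.18), whereas other spots held 727.5 and 709 CPM (ratio 1.02, 1.01 to 1.04). All 39 oxidative phosphorylation genes stayed within 2-fold, with a median of -0.16. Of 24 fatty acid oxidation genes, Cd36 and Slc27a1 were higher and 0 lower, among 22 that passed, and Cd36 was also higher among other spots. Of 41 cell cycle genes, Bub1, a mitotic checkpoint kinase, was lower and 0 were higher. Over all genes tested in heart muscle spots, 7.52% were higher and 2.36% lower, so that 2 of 22 and 1 of 41 lie near these shares.

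Many matrix genes were higher at E13.5 in heart muscle spots and in other spots. Of 20 extracellular matrix genes, 11 were higher in heart muscle spots (median log2 ratio 1.36) and 16 in other spots (median 2.23). Col1a1, the main collagen of connective tissue, was at 2107 and 191 CPM in heart muscle spots at E13.5 and E11.5 (11.1-fold higher, 10.1 to 12.1) and at 2493 and 187 CPM in other spots (13.3-fold higher, 13 to 13.6). Within the E13.5 heart muscle spots Col1a1 was at 1407.5 CPM in the 34 higher-scoring and 2965.8 CPM in the 34 lower-scoring ones. At E11.5 it was at 167.3 and 212.6 CPM in the 39 higher-scoring and 39 lower-scoring ones. Thbs2, a thrombospondin, was 50.4-fold (26.9 to 106.5) higher in heart muscle spots, Lum, the matrix proteoglycan lumican, 7.50-fold (6.17 to 9.17) and Mfap4, a microfibril protein, 8.46-fold (7.18 to 10.0). Lum was also at least 2-fold higher at E13.5 among other spots. Myh11, the smooth muscle myosin heavy chain, was 22.0-fold (12.6 to 41.3) higher in heart muscle spots and 12.3-fold (10.3 to 14.7) in other spots. At E13.5 Myh11 had a UMI in 28 of 68 heart muscle spots, and it stood at 101 and 43.1 CPM in heart muscle and other spots (2.35-fold higher, 1.95 to 2.81), but with the top 3% of spots its log2 ratio to other spots was -1.50. Smooth muscle markers summed to 1084 and 917.5 CPM in heart muscle spots of E13.5 and E11.5 and to 529 and 102 CPM in other spots, and the part of other cell types in these differences was not tested.

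The E11.5 heart muscle spots were themselves uneven in Myl2. Myl2 made up 0% to 77.5% of the summed UMIs of Myl2 and Myl7 in single spots, with a median of 35.3%, and 0% to 2.94% with a median of 0% in E13.5 spots. Myl2 stood at 4176 CPM in the 39 higher-scoring and 5893 CPM in the 39 lower-scoring E11.5 spots. At E13.5 it went the other way, with 44.9 and 8.35 CPM. Whether the score favoured a part of the heart was not tested. Over the 78 E11.5 spots, which share 1 section and differ in depth, the Spearman correlation of CPM with Myl2 was computed for 4224 genes as a description. Those most like Myl2 were Myl3 (0.94), Myh7 (0.89), Pln (0.88), Hopx (0.87) and Smpx (0.87), a small muscle protein. Genes of mitochondrial proteins came next, namely Cox8a (0.82), Cox6a1 (0.81) and Ndufs6 (0.81). Those least like Myl2 were Id3 (-0.79), a helix-loop-helix inhibitor, Igfbp5 (-0.78), a growth factor-binding protein, and Nrep (-0.77), and Nr2f1 stood at -0.66.

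**Figure D4:**
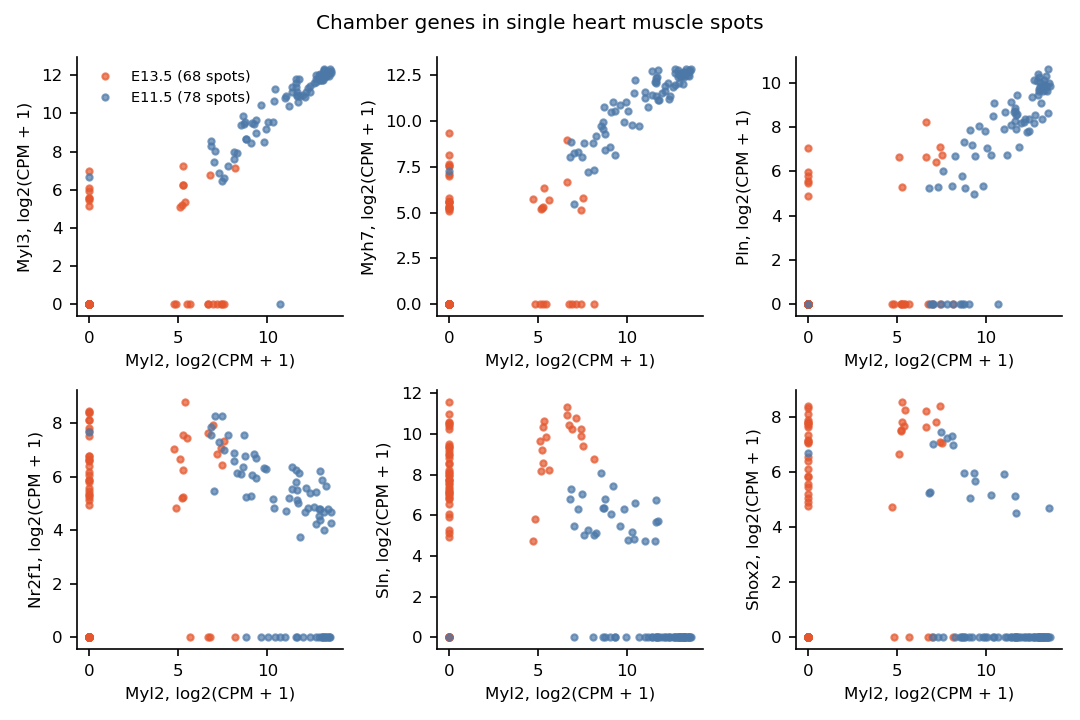
Level of Myl3, Myh7, Pln, Nr2f1, Sln and Shox2 against Myl2 in single heart muscle spots (both axes log2 of CPM plus 1), with 68 spots at E13.5 (red) and 78 at E11.5 (blue), 1 section each. E11.5 spots run along a line from low to high Myl2 for Myl3 and Myh7, and E13.5 spots reach 284.5 CPM of Myl2 at most.

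The 26 E11.5 heart muscle spots with the lowest share of Myl2 were set against the 26 with the highest. The share ran from 0% to 15.7% in Myl2-poor and from 59.8% to 77.5% in Myl2-rich spots, and since Myl2 and Myl7 chose them, the values are a description. Of the genes compared, 363 of 5355 genes (6.78%) were higher and 114 of 5355 genes (2.13%) lower in Myl2-poor spots. Of 9 ventricular genes besides Myl2 that passed the minimum, Irx4, Hey2, Myl3, Myh7, Mpped2, Pln, Lbh and Kcne1 were lower in Myl2-poor spots. Hopx was at 13.5 and 215 CPM in Myl2-poor and Myl2-rich spots (16.0-fold lower, 8.56 to 33.8), Irx4 at 5.39 and 81.4 CPM (15.1-fold lower, 5.72 to 56.6) and Hey2 at 6.73 and 76.5 CPM (11.4-fold lower, 4.70 to 35.8). Nppa was at 386.5 and 2498 CPM (6.46-fold lower, 5.72 to 7.32). Sln held 51 UMIs in Myl2-poor spots and 0 in Myl2-rich ones, and was at least 27.8-fold higher with the Myl2-rich sum set to a floor of 3 UMIs. Vsnl1 was at 92.9 and 3.29 CPM (28.2-fold higher, 10.6 to 107) and Nr2f1 at 105 and 18.1 CPM (5.81-fold higher, 3.58 to 9.79). Nr2f2, a nuclear receptor of the atria, was at 88.9 and 22.2 CPM (4.00-fold higher, 2.52 to 6.52). Shox2 held 28 and 1 UMIs, under the minimum. Of 15 cushion and valve genes that passed, 12 were higher in Myl2-poor spots and 0 lower, and cushion markers summed to 417 and 165 CPM.

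Against the Myl2-poor E11.5 spots alone, 338 of 6334 genes (5.34%) were higher and 89 of 6334 genes (1.41%) lower in E13.5 heart muscle spots. This comparison was added after the values had been seen. Nr2f1 was at 104 and 105 CPM in E13.5 and Myl2-poor E11.5 spots (ratio 0.992, 0.747 to 1.33) and Nr2f2 at 87.7 and 88.9 CPM (ratio 0.987, 0.724 to 1.36). Tbx5 was at 27.0 and 21.5 CPM (ratio 1.25, 0.678 to 2.42). Hopx, at 24.0 and 13.5 CPM (ratio 1.78, 0.855 to 4.06), and Hey2, at 11.2 and 6.73 CPM (ratio 1.67, 0.577 to 5.88), were under the minimum. Myl2 was still 16.6-fold (11.9 to 23.9), Myl3 40.3-fold (25.8 to 66.6), Myh7 27.6-fold (20.7 to 37.5) and Pln 4.83-fold (3.04 to 7.90) lower at E13.5. Sln was 8.86-fold (6.67 to 12), Mlf1 6.19-fold (3.82 to 10.7), Fabp3 3.37-fold (2.90 to 3.93), Hcn4 2.90-fold (1.65 to 5.42) and Shox2 2.82-fold (1.87 to 4.40) higher. Of 17 glycolysis genes that passed, Pgk1 and Slc2a1 were lower, with a median log2 ratio of -0.48. Ldha and Nkx2-5, lower at E13.5 against all E11.5 heart muscle spots, passed the minimum here and stayed within 2-fold.

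**Figure D5:**
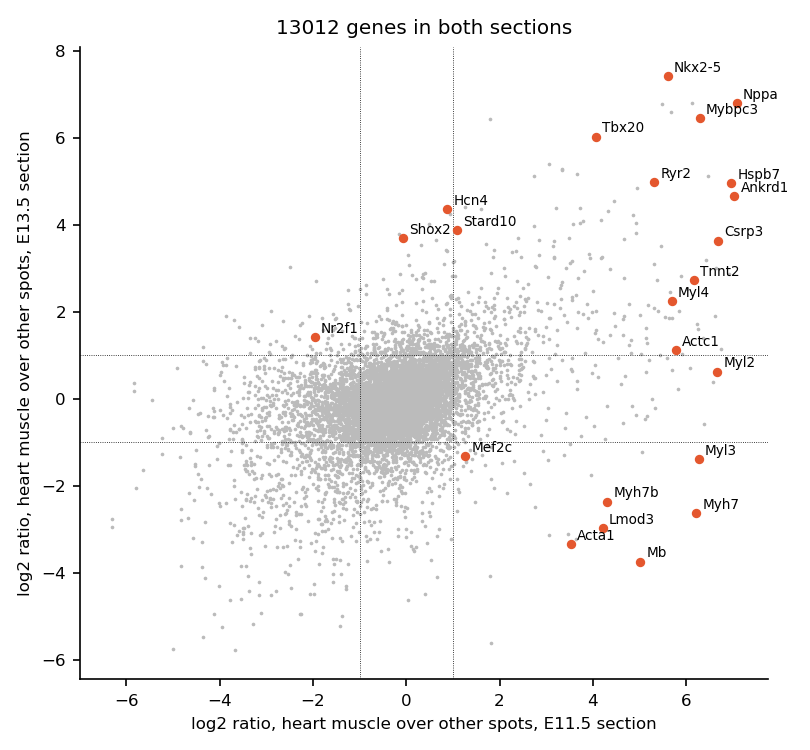
Log2 ratio of heart muscle spots over other spots at E13.5 (vertical) and E11.5 (horizontal) for the 13012 genes that passed the minimum in both sections, without the 3 scoring genes, with dotted lines at 2-fold and named genes in red. Nppa, Mybpc3 and Nkx2-5 lie at the upper right, and Mb, Acta1 and Myh7 at the lower right.

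Some genes lay on opposite sides of the other spots in the sections. Of 13015 genes, 49 (0.376%) were lower in heart muscle spots at E13.5 and higher at E11.5, and 61 (0.469%) were higher at E13.5 and lower at E11.5. Myl3 stood at 15 and 40.0 CPM in heart muscle and other spots at E13.5 (2.67-fold lower, 1.72 to 4.39) and at 2589 and 33.6 CPM at E11.5 (77.1-fold higher, 72.8 to 81.6). Acta1, skeletal actin, was at 146 and 1486 CPM at E13.5 (10.2-fold lower, 8.83 to 11.8) and at 262 and 22.7 CPM at E11.5 (11.6-fold higher, 10.5 to 12.7). Mb held 3 UMIs in E13.5 heart muscle spots (15.6-fold lower, 5.33 to 75.8) and was at 77.4 and 2.37 CPM at E11.5 (32.6-fold higher, 25.7 to 41.7). Nr2f1 went the other way, with 104 and 38.9 CPM at E13.5 (2.68-fold higher, 2.23 to 3.20) and 45.4 and 177 CPM at E11.5 (3.90-fold lower, 3.29 to 4.65). Acta1 and Mb are also genes of skeletal muscle, whose markers in the other E13.5 spots are given above.

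Heart and skeletal muscle spots were compared within the E13.5 section. Skeletal muscle spots were the top 5% by the share of Myod1, Myog, Mylpf and Tnnt3, also 68 spots, of which 0 were heart muscle spots. In heart muscle spots, 666 of 8477 genes (7.86%) were higher and 535 of 8477 genes (6.31%) lower. Mybpc3 was at 383 and 3.48 CPM in heart and skeletal muscle spots (110.3-fold higher, 55.5 to 257), Cox7a1 at 250.5 and 10.9 CPM (23.1-fold higher, 15.4 to 36.2) and Ankrd1 at 322 and 41.7 CPM (7.71-fold higher, 6.17 to 9.73). Tnnt2 differed less, at 1876 and 906 CPM (2.07-fold higher, 1.95 to 2.19), and Actc1 stood at 3104 and 4592 CPM (ratio 0.676, 0.652 to 0.701). Acta1 was at 146 and 5069.9 CPM (34.7-fold lower, 30.1 to 40.2), and Myh7 at 37.5 and 725 CPM (19.3-fold lower, 14.6 to 26.2). Of 18 calcium handling genes, 9 were higher in heart muscle spots and Sln, Casq2 and Hrc lower, among 16 that passed, with a median log2 ratio of 1.23 beside 0.06 over all genes. Of 9 endothelial genes that passed, 8 were higher and 0 lower, with a median of 1.40.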

How the data were processed

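RNA of 3 sections, 1 each of E11.5, E12.5 and E13.5, was captured on Visium arrays. The deposited matrices hold whole UMI counts per gene and spot, made with Space Ranger 1.2.0 per the file headers; the submitters' processing notes also name STAR and mm10. Other settings, not given in the sources used here, could not be checked. Each matrix lists 32285 genes. Gene names came from the files, and 496 of 497 list genes were found. Spots under 1000 UMIs were left out at E13.5 and E11.5, no doublet call was made, and spot positions were not used.

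Heart muscle spots were the top 5% by score among these, with ties going to the lower matrix column. UMIs were summed over spots, scaled to 1000000, and compared as ratios with exact conditional binomial 95% intervals. These cover counting error only. Log2 ratios used a pseudocount of 0.5 UMIs, except in the alternatives, which used none for single genes. No p-value was computed, since each stage has 1 section and the spots were chosen by their values. The depth of a group set the value of 1 UMI at 0.750 CPM in E13.5 and 0.329 CPM in E11.5 heart muscle spots, and a sum of 0 UMIs allows up to 2.25 and 0.988 CPM (3 UMIs).

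The spots and gene lists were chosen with earlier results of these data known. Genes were named by rules that left out globin, mitochondrial, ribosomal protein, sex-linked marker, unnamed and scoring genes. Against other spots, up to 25 higher and 12 lower genes past 2-fold in both sections were taken by the weaker of their ratios. Between stages, up to 15 in each direction were taken whose ratio was also 1.5 times further from 1 than in other spots. Both rules asked for at least 100 UMIs, and genes of 30 lists could be named too. Against other spots 124 higher and 28 lower genes met the rule, and between stages 60 higher and 72 lower. Some genes that met these rules are not reported here.

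Sums used Python 3.11.15, numpy 2.4.6, scipy 1.17.1 and pandas 2.3.3. The scaling alternatives used R 4.3.3 with edgeR 4.0.16 (TMM) and DESeq2 1.42.0 (size factors). Checked on simulated data with a known 4-fold change, the call recovered 93.5% of changed genes for E13.5 heart muscle against other spots, 98.0% for E11.5 and 100.0% between stages. Of unchanged genes, 3.87%, 2.30% and 0.410% passed 2-fold in these comparisons. The simulated sums were Poisson counts drawn from a profile shared by both groups. They held no variation between spots or sections and no choice of spots by score, so these shares cover counting error only.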

Additional observations from a re-analysis of the deposited data

Results flagged for a closer look

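Among genes named by the rules and genes of the heart muscle lists, 9 lay on opposite sides of the other spots at E13.5 and E11.5. This difference was not tested, with 1 section per stage. Over all 13015 genes that passed in both sections, 49 (0.376%) were lower at E13.5 and higher at E11.5. The reverse held for 61 (0.469%). The E13.5 log2 ratio minus the E11.5 one was -8.84 for Myh7, the slow myosin heavy chain, whose ratios were -2.62 and 6.22. It was -8.76 for Mb, myoglobin (-3.74 and 5.02), and -7.65 for Myl3, the ventricular light chain (-1.38 and 6.27). Mb rested on 3 UMIs in E13.5 heart muscle spots. For Lmod3, a leiomodin of the thin filament, it was -7.18 (-2.97 and 4.21), for Acta1, skeletal actin, -6.87 (-3.34 and 3.53), and for Myh7b, a slow-muscle myosin heavy chain, -6.67 (-2.36 and 4.31). For the muscle transcription factor Mef2c it was -2.57 (-1.31 and 1.26), and for Mpped2, of the ventricular list, -2.05 (-0.98 and 1.07). Nr2f1, the atrial nuclear receptor, went the other way, with 3.39 (1.43 and -1.96). Several of the 9 are also genes of skeletal muscle, whose markers summed to 5044 CPM in the other E13.5 spots and 90.5 CPM in the other E11.5 spots. Without the 68 spots richest in skeletal muscle genes, an alternative added after seeing the data, the E13.5 log2 ratios with no pseudocount of the 8 lower genes ran from -3.63 (Mb) to -1.06 (Mpped2) and that of Nr2f1 was 1.33. This left out 68 of 1292 other spots. Before it, skeletal muscle markers stood at 2129 CPM in the median other spot and 332 CPM in the median heart muscle spot. Skeletal muscle RNA thus remained in the other spots, and its part in these ratios was not tested. With the top 3% of spots the E13.5 ratio of Myl3 was -0.81. Mpped2 fell short of 2-fold at E13.5 with TMM scaling (-0.95), DESeq2's size factors (-0.93) and each spot weighing the same (-0.82), and at E11.5 with the top 3% of spots (0.95) and each spot weighing the same (0.74).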

How the results depend on the processing

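No paired analysis was possible because each stage has 1 section, and no replicate could be left out. Of the values recomputed under the alternatives, 3029 of named genes stayed within the limits set for a change, 802 moved and 8 changed sign, and of list medians 702 stayed and 29 moved. The count of genes higher in E13.5 heart muscle than in other spots was 2075 with no filter on low values. The count lower there was 915 with the top 10% of spots. At E11.5 the count higher was 1329 with TMM scaling, 2033 with no filter and 583 with spots thinned to 5000 UMIs, which left out 1 heart muscle spot and 9 others there and 4 and 105 at E13.5. Between the stages the count higher at E13.5 was 436 with the top 3% of spots, 365 with TMM, 386 with DESeq2's size factors, 1234 at a minimum of 20 UMIs, 3130 with no filter, 135 with thinned spots and 338 against the Myl2-poor spots. The count lower was 406 with TMM, 374 with DESeq2's size factors, 376 at a minimum of 20 UMIs, 687 with no filter, 56 with thinned spots and 89 against the Myl2-poor spots. No filter and a minimum of 20 UMIs test more genes and thinning fewer; otherwise the cause was not tested. Log2 ratios that changed sign were Myh11 (-1.50) at E13.5 and Ppbp (-0.16) at E11.5 with the top 3% of spots, Pax1 (0.21) at E11.5 with the top 10%, and Dclk1 (-0.15) between stages with thinned spots. Against the Myl2-poor spots, Hopx (0.83), Hey2 (0.74), Smpx (1.08) and Nr2f1 (-0.01) changed sign, of which Hopx and Hey2 were under the minimum of 50 UMIs and Nr2f1 had an interval that spanned a ratio of 1. The ventricular median between stages was -4.04 with the top 3% of spots and -3.15 against the Myl2-poor spots, the second over 6 genes that passed, Myl2 among them, in place of 10. Depth limits the low genes: 1 UMI is worth 0.750 CPM in E13.5 and 0.329 CPM in E11.5 heart muscle spots.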

Other observations

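Markers of other cell types were also measured in the heart muscle spots, and their part in the differences between stages was not tested. Epicardial markers, of the outer layer of the heart, summed to 184 CPM in heart muscle and 105 CPM in other spots at E13.5, and to 289 and 92.1 CPM at E11.5. Between the stages, 4 of 12 epicardial genes that passed were lower at E13.5, namely Wt1, Upk3b, Upk1b and Itga4, and Tcf21 and Sema3d were higher. Over all genes tested in heart muscle spots, 2.36% were lower and 7.52% higher. Wt1, an epicardial zinc finger factor, was 3.04-fold (1.95 to 4.93) lower at E13.5. Endothelial markers summed to 262.5 and 259 CPM at E13.5 and to 163 and 200.1 CPM at E11.5, in heart muscle and other spots.

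Macrophage genes were higher at E13.5 than at E11.5, 7 of 7 that passed in heart muscle spots (median log2 ratio 2.60) and 10 of 10 in other spots (median 1.82). Over all genes tested, 7.52% were higher at E13.5 in heart muscle spots and 14.8% in other spots. C1qb, a complement gene of macrophages, was 6.34-fold (4.32 to 9.50) higher in heart muscle spots. Red cell markers summed to 3032 CPM in heart muscle and 2595 CPM in other spots at E13.5, and to 12846 and 27447 CPM at E11.5. Neuronal markers summed to 292 and 338.5 CPM at E13.5 and to 139.9 and 1474.5 CPM at E11.5, and Schwann cell markers to 64.5 and 93.6 CPM and to 15.5 and 69.0 CPM. Liver markers summed to 222 and 72.8 CPM at E13.5, where 8 of 9 liver genes that passed were higher in heart muscle spots, and to 368 and 697 CPM at E11.5. Markers of lung and gut epithelium summed to 219 and 139 CPM at E13.5 and to 16.1 and 61.4 CPM at E11.5, where the lung genes Nkx2-1 and Sftpc held 0 UMIs in heart muscle spots. Cartilage markers summed to 503 and 3385.5 CPM at E13.5, with a highest single heart muscle spot of 23083 CPM, and to 219 and 583 CPM at E11.5.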
